A study of Mus musculus with 12 samples.

Results

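Liver and duodenum of the vehicle-treated (Veh) mice were compared gene by gene, to describe the baseline expression programs of both organs without corticosterone (CORT). The members were the genes with a mean of 1 TPM or more in the 3 Veh liver libraries or the 3 Veh intestine libraries, after the liver and intestine tables were joined on the gene identifier. These were 14134 of the 55416 genes in the joined tables. All 12 libraries of the series came from adult male C57BL6/J mice with no transgene or deletion. The 6 Veh libraries used here came from mice given daily subcutaneous injections of the solvent, which was DMSO and Tween-80 in water, for weeks, and the other 6 came from mice given CORT in that solvent. The labels name the tissues liver and intestine, and the methods of the study name the intestinal piece as duodenum. Each library was made from total RNA of a frozen piece of tissue and is labelled as a biological replicate, 1 to 3, of its tissue and treatment. Values of a gene are given below in the order of replicates 1, 2 and 3. TPM divides the reads of a gene by transcript length and scales the values to the same sum in every library, so a level is a share of that library's transcripts. Since each library is a mixture of cell types, fewer cells of a type and less RNA per cell cannot be told apart. Tissue, table and any batch in which a tissue was handled cannot be told apart either.

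Hepatocytes fill most of the liver. They secrete the plasma proteins into blood, make bile, detoxify nitrogen as urea, and store and release glucose. Kupffer cells, sinusoidal endothelium, stellate cells and bile duct cells make up the rest of the organ. The duodenum is the first stretch of the small intestine, where acid chyme meets bile and pancreatic juice. Its villi are covered by enterocytes whose brush border holds the last digestive enzymes and the nutrient transporters, while goblet, Paneth, tuft and enteroendocrine cells secrete mucus, antimicrobial peptides and hormones. The villi are renewed from stem cells in the crypts, and the wall below holds plasma cells, lymphocytes, muscle and nerves. The pancreatic duct opens into the duodenum, and pancreatic tissue lies against its wall.

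Both labels held against their markers. Alb measured 32823, 59476 and 50958 TPM in the liver libraries and 0.27, 0.29 and 0.39 in the duodenal libraries (albumin, the main plasma protein). Fabp2 measured 42.5, 49.8 and 37.1 TPM in the liver libraries and 3360, 2204 and 2707 in the duodenal libraries (the intestinal fatty acid binding protein of enterocytes). The tissues did not overlap for either gene, with liver minus duodenum differences of 15.10 ± 0.22 log2 units, adjusted p = 1.93e-08 for Alb and -5.95 ± 0.19 log2 units, adjusted p = 3.25e-07 for Fabp2 (limma on log2(TPM + 1), adjusted over the 14134 genes, ± SE, n = 3 per tissue). The liver still held 37.1 to 49.8 TPM of Fabp2, whereas Alb was below 1 TPM in each duodenal library.

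The 250 bases before the start site of 6 genes are shown because these genes stand for the patterns described below. Alb and Ahsg were high in liver alone. Fabp2, Rbp2 and Sis were high in duodenum. Fabp1 was high in both. The sequences are RefSeq's on mouse build GRCm38.p6, read 5′ to 3′ on the strand of the gene, and capitals mark every match, on either strand, to 5 motifs named after liver and gut factors. The motif searched for HNF4, a nuclear receptor of both organs, was CAAAGTC. For CDX, the caudal factors of the intestine, it was TTTATG. For GATA, the zinc finger factors of endoderm, it was AGATAA. For the TATA box, which places the start of transcription, it was TATAAA. For C/EBP, leucine zipper factors of liver and fat, it was TTGCNNAA, with N for any base. The windows were chr5:90460620-90460869 (+) for Alb, chr16:22891765-22892014 (+) for Ahsg, chr3:122894822-122895071 (+) for Fabp2, chr9:98490287-98490536 (+) for Rbp2, chr3:72967864-72968113 (-) for Sis and chr6:71199629-71199878 (+) for Fabp1.
Alb: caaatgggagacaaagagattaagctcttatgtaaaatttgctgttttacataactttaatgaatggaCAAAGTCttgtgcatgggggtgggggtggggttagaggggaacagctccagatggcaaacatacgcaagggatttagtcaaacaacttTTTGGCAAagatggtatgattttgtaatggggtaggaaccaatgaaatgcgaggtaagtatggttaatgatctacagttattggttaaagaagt
Ahsg: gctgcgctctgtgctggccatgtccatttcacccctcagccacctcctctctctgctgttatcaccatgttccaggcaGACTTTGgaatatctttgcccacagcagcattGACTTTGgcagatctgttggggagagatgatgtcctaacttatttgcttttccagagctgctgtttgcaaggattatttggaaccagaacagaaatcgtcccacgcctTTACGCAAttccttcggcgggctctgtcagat
Fabp2: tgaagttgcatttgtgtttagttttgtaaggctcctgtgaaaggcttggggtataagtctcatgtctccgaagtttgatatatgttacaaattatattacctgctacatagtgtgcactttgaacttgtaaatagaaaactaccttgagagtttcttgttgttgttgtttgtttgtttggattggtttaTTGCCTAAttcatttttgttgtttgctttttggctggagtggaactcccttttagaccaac
Rbp2: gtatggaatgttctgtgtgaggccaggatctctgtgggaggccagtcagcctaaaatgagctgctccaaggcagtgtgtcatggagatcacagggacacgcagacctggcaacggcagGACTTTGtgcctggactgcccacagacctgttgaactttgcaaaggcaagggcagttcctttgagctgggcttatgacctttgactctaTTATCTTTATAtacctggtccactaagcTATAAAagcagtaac
Sis: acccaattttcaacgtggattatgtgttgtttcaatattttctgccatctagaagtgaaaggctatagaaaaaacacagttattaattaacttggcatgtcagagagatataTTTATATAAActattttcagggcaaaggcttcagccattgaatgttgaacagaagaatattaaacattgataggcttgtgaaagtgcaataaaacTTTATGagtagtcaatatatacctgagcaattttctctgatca
Fabp1: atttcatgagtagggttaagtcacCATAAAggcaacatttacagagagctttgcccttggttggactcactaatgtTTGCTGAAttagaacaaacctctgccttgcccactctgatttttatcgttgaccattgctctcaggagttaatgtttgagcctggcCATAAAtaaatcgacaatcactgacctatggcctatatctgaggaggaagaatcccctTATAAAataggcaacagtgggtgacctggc
The Alb window held a C/EBP match 94 to 87 bases before the start and an HNF4 match at 182 to 176. The Fabp1 window held a C/EBP match at 174 to 167, CDX matches at 88 to 83 and 226 to 221, and a TATA box at 30 to 25. The Sis window held a CDX match at 43 to 38 and a pair of TATA matches on opposite strands, at 138 to 133 and 134 to 129, that share bases. In the Rbp2 window a GATA match at 43 to 38 and a TATA match at 38 to 33 share a base, and are written as 1 run of capitals. A match is a stretch of letters, not a measured binding site.

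Over 22862 genes with 1 listed start, 9.60% of such windows held the C/EBP motif, 3.78% HNF4, 11.5% CDX, 10.4% GATA and 13.6% the TATA box. Among the 8312 of them that were tested here the shares, in that order, were 7.95%, 3.89%, 6.40%, 6.38% and 7.64%. The 477 windows of genes called higher in liver by more than 4-fold held the C/EBP motif in 17.8% and HNF4 in 6.92%. The 1259 windows of genes called higher in duodenum by more than 4-fold held them in 7.55% and 5.08%. The CDX motif was in 12.6% of the liver windows and 7.94% of the duodenal windows, GATA in 10.3% and 9.13%, and the TATA box in 15.3% and 11.4%. Each of the 5 motifs was more frequent in the liver windows than in the duodenal windows. Window shares were not tested.

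Most tested genes were called, in part because a gene high in 1 tissue passed the filter through that tissue. The summed TPM per library was 996218 to 997319, and 17943 to 18891 genes were above 0 in the liver libraries against 19466 to 20162 in the duodenal libraries. Across the tested genes the correlation of log2(TPM + 1) was 0.968 to 0.978 within liver, 0.951 to 0.973 within duodenum and 0.458 to 0.497 between the tissues, a description over genes, which are not independent. A gene was called when its adjusted p was 0.05 or less and its fold change on this scale was above 1.5. By this rule 9524 of 14134 genes (67.4%) were called, 2029 (14.4%) higher in liver and 7495 (53%) higher in duodenum, and another 951 genes passed the p but not the fold. The values of the tissues did not overlap for 11011 genes (77.9%), and they overlapped for 90 of the called genes. With 3 against 3 libraries an exact permutation test of a single gene cannot go below 0.1, so the calls rest on the limma model across genes.

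The direction of the calls depends on how libraries are scaled. The median difference of all tested genes was -0.72 log2 units, that is, toward duodenum. After median-ratio scaling of the libraries the median was -0.02, and 8126 of 13931 genes were called, 3854 higher in liver and 4272 higher in duodenum. The share of calls higher in liver was thus 21.3% with TPM as deposited and 47.4% after that scaling. Of the calls with TPM as deposited, 6297 were also made in the same direction after scaling and 0 in the other direction. That scaling moved genes toward liver together, such as Fabp1 from 0.03 to 0.86 log2 units. A change from a call on one side to a call on the other would need a larger shift. The 0 was thus largely fixed in advance and is no support for the directions. A list of genes is therefore described below beside the shares of all tested genes (14.4% called higher in liver, 53% in duodenum) and their median, and genes whose direction turned with the scaling are named as such.

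**Figure D1:**
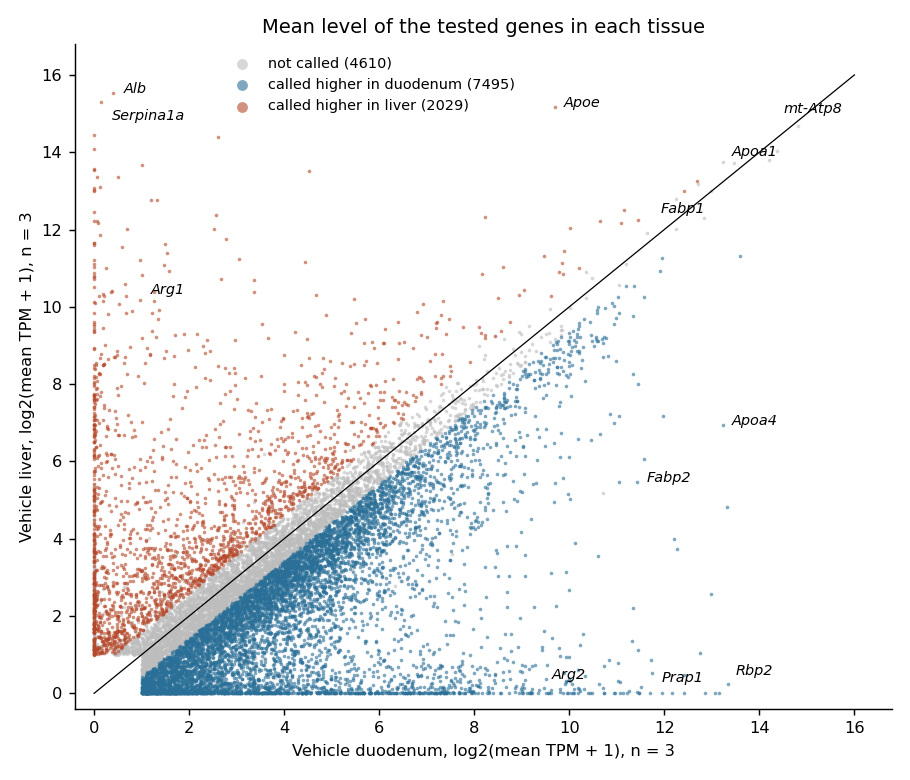
Each point is 1 of the 14134 tested genes, placed by log2(mean TPM + 1) of the 3 vehicle duodenum libraries (horizontal) and of the 3 vehicle liver libraries (vertical), with the line of equal level. Called genes are coloured by the tissue in which they were higher, and the 2 arms along the axes hold genes near 0 in one of the tissues.

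The liver put much of its transcript pool into few genes. In the liver libraries 37, 48 and 39 genes made up 50% of the TPM sum, against 184, 165 and 171 in the duodenal libraries. The 10 highest liver genes took 25.9% ± 1.23 (SD, n = 3) of liver TPM and 7.96% ± 0.81 of duodenal TPM. The 10 highest duodenal genes took 14.2% ± 0.75 of duodenal TPM and 8.78% ± 0.33 of liver TPM. These genes were chosen by their level in the same libraries, so the shares are a description. Of the genes with a mean of 1000 TPM or more, 116 were found in liver and 167 in duodenum, with 35 in both. Of these, 45 liver genes were under 1 TPM in duodenum, 21 of them listed at 0 there, and 49 duodenal genes were under 1 TPM in liver, 23 of them listed at 0.

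Among the 14134 genes, 9905 were at 1 TPM or more in both tissues, 1104 in liver only and 3125 in duodenum only. The genes of the last 2 classes passed the filter through 1 tissue and had to differ. They hold 801 and 2691 of the 9524 calls. Alb, Rbp2 and Sis are among them. For any such gene the difference and adjusted p, above or below, describe its size and spread. They are no support that the tissues differ, nor are those of genes named for being highest or most different. Of the 9905 shared genes, 1228 were called higher in liver, 4804 higher in duodenum, and 3873 (39.1%) were not called. The gene lists below hold members of all 3 classes, and their counts describe the lists and are no support for a difference. Of the members at 1 TPM or more in both tissues, 5 of 5 plasma carrier genes, 2 of 2 coagulation genes, 8 of 8 amino acid breakdown genes and 8 of 8 liver hormone and receptor genes were called higher in liver. Among such members 6 of 6 brush border hydrolases, 8 of 8 proliferation genes, 9 of 9 plasma and B cell genes, 2 of 2 Paneth genes and 2 of 2 T cell genes were called higher in duodenum. These counts stand beside 4804 of all 9905 shared genes. The Paneth genes here include Lyz2, the lysozyme of macrophages, whose call was lost after median-ratio scaling. Some lists were mixed among such members: 4 of 8 crypt stem cell genes and 3 of 7 macrophage genes were called higher in duodenum. None of the tested enteroendocrine or islet genes was at 1 TPM or more in both. The liver-only genes held 32.4% ± 5.0 of liver TPM, and the duodenum-only genes held 22.0% ± 3.95 of duodenal TPM. Shared genes thus made up most of both pools, at 67.3% ± 4.95 in liver and 77.8% ± 3.96 in duodenum.

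The highest genes of the 2 tissues overlapped in part. Apoa1 (the main protein of high-density lipoprotein) and 3 genes of mitochondrial sequence, mt-Atp8, mt-Co1 and Gm28661, were among the 10 highest of both. Gm28661 and Gm28437 resemble mitochondrial genes, so reads could be split between them and the mitochondrial copies. Beside these and Alb, the liver set held Serpina1a (alpha-1 antitrypsin), Apoe and Apoa2 (lipoprotein proteins), and Mup7 and Mup22 (urinary pheromone carriers). Apoe measured 31252, 43283 and 36815 TPM in the liver libraries and 548, 946 and 981 in the duodenal libraries, and Apoa2 was 21089, 20349 and 23407 TPM in liver and 3.71, 6.89 and 4.72 in duodenum. The duodenal set held Rbp2 (the retinol binding protein of enterocytes) and Prap1 (a secreted protein of the gut epithelium). Rbp2 measured 0.55, 0 and 0 TPM in the liver libraries and 13639, 8934 and 8597 in the duodenal libraries, a difference of -13.10 ± 0.25 log2 units, adjusted p = 3.77e-08. Prap1 was listed at 0 in the 3 liver libraries and measured 6361, 10719 and 10303 TPM in the duodenal libraries. No liver library came near a duodenal one for Rbp2 or Prap1.

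**Figure D2:**
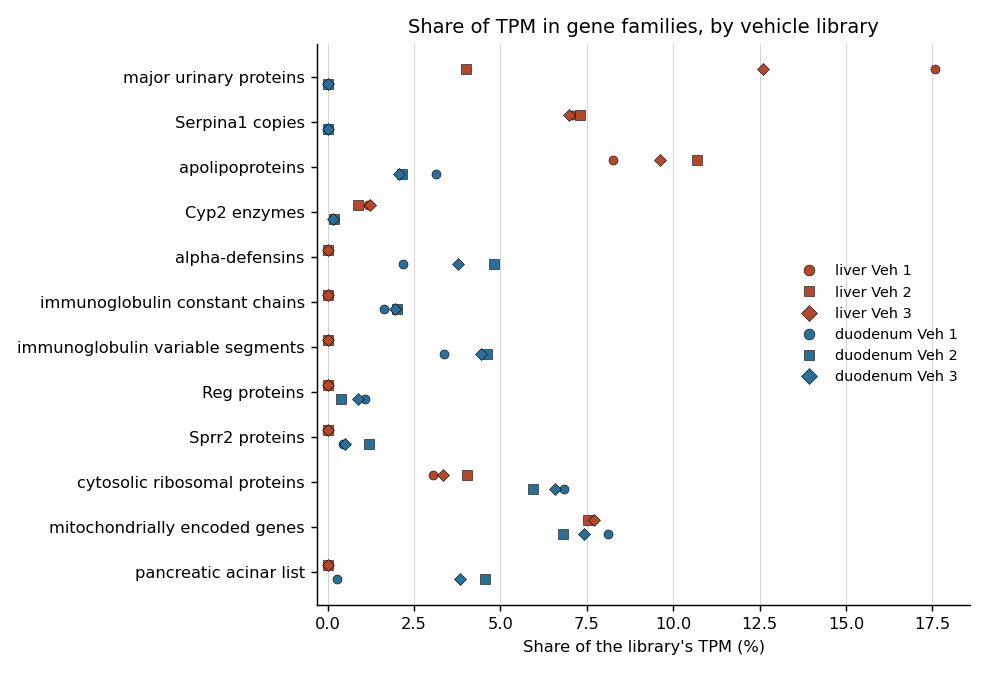
Shares of summed TPM (%) taken by gene families in each vehicle library, liver and duodenum side by side, with 1 point per library (circle Veh 1, square Veh 2, diamond Veh 3). Major urinary proteins range from 3.99% to 17.6% within liver, and alpha-defensins from 2.19% to 4.82% within duodenum.

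Families of near-identical copies carried much of the contrast, and how reads were split among their copies is uncertain, so their sums are given. The major urinary proteins, which males excrete in urine, took 17.6%, 3.99% and 12.6% of liver TPM and almost none of duodenal TPM. Liver Veh 2 lay far below the other liver libraries: Mup7 was 40282, 726 and 26272 TPM, Mup19 20835, 1711 and 12957 and Mup14 19717, 2684 and 13752, while Mup20 was 8349, 12698 and 10498 with Veh 2 the highest. The Serpina1 copies were far steadier at 7.12% ± 0.16 of liver TPM. In duodenum the alpha-defensins, peptides of Paneth cells, took 2.19%, 4.82% and 3.78%, the immunoglobulin constant chains 1.86% ± 0.19 and the variable segments 4.13% ± 0.68. The apolipoproteins were shared, with 9.51% ± 1.22 in liver and 2.46% ± 0.59 in duodenum. Genes for cytosolic ribosomal proteins took 3.47% ± 0.50 of liver TPM and 6.45% ± 0.45 of duodenal TPM, without overlap. Mitochondrially encoded genes did not separate the tissues, at 7.59% ± 0.09 and 7.45% ± 0.65 (exact permutation test, two-sided, p = 0.7).

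Plasma carrier proteins stood on the liver side. All 21 tested of the 22 listed genes were called higher in liver, the remaining one, A1bg, being at or near 0 in both tissues. Their median difference was 9.02 log2 units, and 9.65 over the 16 that were above 0 in both tissues, beside -0.72 for all genes. Ahsg measured 7527, 10985 and 7675 TPM in the liver libraries and 0.06, 0.10 and 0.09 in the duodenal libraries (fetuin-A, an inhibitor of mineral deposition), a difference of 12.95 ± 0.17 log2 units, adjusted p = 1.62e-08. Trf measured 11171, 14340 and 9820 TPM in the liver libraries and 15.8, 26.8 and 22.9 in the duodenal libraries (transferrin, the iron carrier of plasma), a difference of 9.02 ± 0.22 log2 units, adjusted p = 1.12e-07. Ttr measured 4176, 6057 and 5674 TPM in the liver libraries and 3.75, 5.62 and 5.43 in the duodenal libraries (transthyretin, which carries thyroxine), a difference of 9.80 ± 0.20 log2 units, adjusted p = 4.42e-08. Each liver library was far above each duodenal library for these genes. Serpina6, the corticosteroid-binding globulin that carries glucocorticoids in blood, was 95.8, 374 and 117 TPM in liver and listed at 0 in the 3 duodenal libraries, with liver Veh 2 above the other liver libraries.

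Coagulation and fibrinolysis genes were called higher in liver for 20 of 20, with a median of 8.17, and 7.88 over the 14 above 0 in both tissues. Fga measured 3620, 3410 and 2688 TPM in the liver libraries and was listed at 0 in the 3 duodenal libraries (fibrinogen alpha chain), and the beta and gamma chains Fgb and Fgg were likewise listed at 0 in duodenum. Serpinc1 measured 2640, 3262 and 3058 TPM in the liver libraries and 0.47, 0.73 and 0.30 in the duodenal libraries (antithrombin), a difference of 10.96 ± 0.15 log2 units, adjusted p = 1.87e-08. F2 measured 1100, 1415 and 1231 TPM in the liver libraries and 0.21, 0.24 and 0.03 in the duodenal libraries (prothrombin), a difference of 10.07 ± 0.14 log2 units, adjusted p = 1.90e-08. The lowest member in liver, F11, was still at 32.5, 33.8 and 39.8 TPM there. Among the 18 complement genes 15 were called higher in liver, 2 higher in duodenum and 1 was not called. C3 measured 2335, 2910 and 1631 TPM in the liver libraries and 16.7, 31.1 and 14.2 in the duodenal libraries (the central component), a difference of 6.77 ± 0.33 log2 units, adjusted p = 2.74e-06. Cfb measured 826, 841 and 679 TPM in the liver libraries and 101, 79.2 and 69.6 in the duodenal libraries (factor B), a difference of 3.23 ± 0.17 log2 units, adjusted p = 3.78e-06, so each duodenal library held at least 69.6 TPM of this component. The genes called the other way were C1qa and C1qb, which macrophages make. C1qa measured 33.1, 47.1 and 40.4 TPM in the liver libraries and 57.8, 87.8 and 94.6 in the duodenal libraries, a difference of -0.96 ± 0.22 log2 units, adjusted p = 0.00634, and C1qb differed by -0.69 ± 0.26 log2 units, adjusted p = 0.0447. After median-ratio scaling the difference of C1qb was 0.11, on the liver side, and neither C1qa nor C1qb was called.

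Amino acid breakdown genes were called higher in liver for 21 of 21, with a median of 7.42 (7.32 over the 18 above 0 in both). Gnmt measured 2178, 2959 and 2926 TPM in the liver libraries and 0, 3.46 and 2.27 in the duodenal libraries (glycine N-methyltransferase), a difference of 10.09 ± 0.52 log2 units, adjusted p = 3.90e-06. Hpd measured 1546, 1751 and 1707 TPM in the liver libraries and 6.15, 14.3 and 7.45 in the duodenal libraries (an enzyme of tyrosine breakdown), a difference of 7.42 ± 0.27 log2 units, adjusted p = 7.36e-07. Bhmt measured 1867, 347 and 1766 TPM in the liver libraries and 0.29, 0.09 and 0.45 in the duodenal libraries (betaine-homocysteine methyltransferase), a difference of 9.69 ± 0.62 log2 units, adjusted p = 1.13e-05. For Bhmt liver Veh 2 was the lowest, yet above every duodenal value. Tat measured 524, 608 and 862 TPM in the liver libraries and was listed at 0 in the 3 duodenal libraries (tyrosine aminotransferase). Tdo2, the entry enzyme of tryptophan breakdown, was 567, 804 and 713 TPM in liver and below 1 TPM in duodenum.

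Cps1 and Otc, of the early steps of the urea cycle, were expressed in both organs, while Ass1 and Arg1 were far higher in liver. Of 12 genes of urea and arginine metabolism, 6 were called higher in liver, 3 higher in duodenum and 3 were not called, with a median of 0.92. The share called in either direction was 75%, beside 67.4% of all tested genes (14.4% higher in liver, 53% higher in duodenum). Cps1 measured 661, 809.5 and 669 TPM in the liver libraries and 209.8, 219 and 218 in the duodenal libraries (carbamoyl phosphate synthetase, the entry to the cycle), a difference of 1.71 ± 0.11 log2 units, adjusted p = 1.39e-05. Otc measured 185, 190.1 and 199 TPM in the liver libraries and 75.7, 54.3 and 61.2 in the duodenal libraries (ornithine transcarbamylase), a difference of 1.58 ± 0.14 log2 units, adjusted p = 6.28e-05. The early steps were thus measured in each duodenal library at a fair level. The late steps differed more. Ass1 measured 1715, 2970 and 2553 TPM in the liver libraries and 6.39, 8.10 and 7.49 in the duodenal libraries (argininosuccinate synthase), a difference of 8.15 ± 0.21 log2 units, adjusted p = 1.48e-07. Arg1 measured 953, 1292 and 1237 TPM in the liver libraries and 0.59, 1.54 and 0.72 in the duodenal libraries (the cytosolic arginase that releases urea), a difference of 9.24 ± 0.21 log2 units, adjusted p = 8.61e-08. The mitochondrial arginase Arg2 showed the mirror image of Arg1, at 0.04, 0.04 and 0.23 TPM in liver and 683, 733 and 719 in duodenum, a difference of -9.34 ± 0.12 log2 units, adjusted p = 1.62e-08. Aldh18a1 and Pycr1, which make proline and its precursor from glutamate, were also higher in duodenum, by -5.24 and -1.76 (adjusted p = 1.72e-05 and 8.54e-04). Oat (ornithine aminotransferase) was 403, 221 and 352 TPM in liver and 423, 244 and 250.04 in duodenum and overlapped between the tissues, as did Nags (the maker of the activator of Cps1).

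Glucose production and glycogen genes were called higher in liver for 12 of 17, higher in duodenum for 1, and not called for 4. The share called in either direction was 76.5%, beside 67.4% of all tested genes (14.4% higher in liver, 53% higher in duodenum). Fbp1 measured 622, 874 and 806 TPM in the liver libraries and 35.8, 39.7 and 59.3 in the duodenal libraries (fructose-1,6-bisphosphatase), a difference of 4.08 ± 0.22 log2 units, adjusted p = 4.76e-06. Pck1 measured 804, 545 and 1448 TPM in the liver libraries and 94.8, 36.8 and 199.97 in the duodenal libraries (the committed enzyme of gluconeogenesis), a difference of 3.26 ± 0.62 log2 units, adjusted p = 0.00262. G6pc measured 80.3, 31.6 and 121 TPM in the liver libraries and 24.8, 9.84 and 10.6 in the duodenal libraries (glucose-6-phosphatase), a difference of 2.21 ± 0.54 log2 units, adjusted p = 0.00786. Pck1 and G6pc were measurable in each duodenal library, at lower levels than in any liver library. Glycogen synthase Gys2 was listed at 0 in the 3 duodenal libraries and was 64.4, 104 and 101 TPM in liver. Khk measured 271, 210.2 and 420.3 TPM in the liver libraries and 442, 340.0 and 341 in the duodenal libraries (ketohexokinase, which phosphorylates fructose), and it was not called. Slc2a2 measured 75.9, 60.6 and 123 TPM in the liver libraries and 212, 131 and 158 in the duodenal libraries (the low-affinity glucose transporter GLUT2), a difference of -0.97 ± 0.29 log2 units, adjusted p = 0.0188 that lost its call after median-ratio scaling (-0.16).

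Bile acid synthesis and transport genes were called higher in liver for 18 of 20 tested of 22 listed, with a median of 5.12 (4.39 over the 18 above 0 in both). Cyp7a1 measured 26.7, 31.8 and 19.1 TPM in the liver libraries and was listed at 0 in the 3 duodenal libraries (the rate-limiting enzyme of bile acid synthesis). Slc10a1 measured 319, 281 and 517 TPM in the liver libraries and 0.04, 0.05 and 0 in the duodenal libraries (the hepatocyte uptake transporter NTCP), a difference of 8.45 ± 0.23 log2 units, adjusted p = 1.72e-07. Abcb11 measured 147, 128 and 126 TPM in the liver libraries and 0, 0.01 and 0 in the duodenal libraries (the bile salt export pump), a difference of 7.07 ± 0.12 log2 units, adjusted p = 2.67e-08. The 2 genes called higher in duodenum were the subunits of the basolateral bile acid exporter. Slc51a measured 0, 0.21 and 0.08 TPM in the liver libraries and 176, 154 and 159 in the duodenal libraries, a difference of -7.23 ± 0.13 log2 units, adjusted p = 3.01e-08, and Slc51b differed by -6.37 ± 0.29 log2 units, adjusted p = 1.92e-06. The ileal genes of bile acid handling were low or absent in these duodenal libraries. Fgf15, the bile acid hormone of the ileum, was listed at 0 in all 6 libraries, and Fabp6, the ileal bile acid binding protein, was 0.73 TPM in duodenum Veh 2 and 0 in the others. Slc10a2, the apical uptake transporter best known from the ileum, was 8.06, 12.6 and 4.66 TPM in liver and 0.14, 0.09 and 0.08 in duodenum, a difference of 3.01 ± 0.31 log2 units, adjusted p = 1.15e-04.

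Fatty acid oxidation genes were expressed in both organs. Of 16 genes of this route and of ketone body synthesis 6 were called higher in liver, 5 higher in duodenum and 5 were not called, with a median of 0.44. The share called in either direction, 68.8%, was near the 67.4% of all tested genes (14.4% higher in liver, 53% higher in duodenum, median -0.72). After median-ratio scaling 10 of the 16 listed genes were called higher in liver and 0 higher in duodenum. Hadha measured 79.1, 101 and 86.3 TPM in the liver libraries and 203, 188 and 189.8 in the duodenal libraries (the alpha subunit of the mitochondrial trifunctional protein), a difference of -1.12 ± 0.12 log2 units, adjusted p = 1.71e-04. Acadvl measured 169, 183 and 179 TPM in the liver libraries and 183, 177 and 172 in the duodenal libraries (the very long chain dehydrogenase) and was not called, with a difference of -0.00 ± 0.10. The 5 genes called higher in duodenum, Hadha, Hadhb, Cpt2, Acadl and Ehhadh, had differences of -1.12 to -0.64, and 0 of them were called after median-ratio scaling, where Hadhb, Acadl and Ehhadh turned to the liver side.

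Among 20 genes for hormones and receptors of the liver 18 were called higher there and 2 were not called, with a median of 5.69 (4.98 over the 17 above 0 in both). Hamp measured 1655, 10207 and 2449 TPM in the liver libraries and was listed at 0 in the 3 duodenal libraries (hepcidin, the hormone that limits iron uptake from the gut), and liver Veh 2 was the highest. Igf1 measured 401, 471 and 401 TPM in the liver libraries and 0.93, 4.64 and 1.00 in the duodenal libraries (insulin-like growth factor 1), a difference of 7.25 ± 0.41 log2 units, adjusted p = 5.57e-06. Igfbp2 measured 441, 419 and 379 TPM in the liver libraries and 0.42, 0.51 and 0.13 in the duodenal libraries (a carrier of that factor), a difference of 8.27 ± 0.15 log2 units, adjusted p = 3.13e-08. Gcgr measured 125, 141 and 121 TPM in the liver libraries and 0.53, 0.82 and 0.78 in the duodenal libraries (the glucagon receptor), a difference of 6.25 ± 0.13 log2 units, adjusted p = 5.42e-08. The insulin receptor Insr was much closer between the organs, at 8.66, 13.6 and 10.4 TPM in liver and 6.56, 5.80 and 7.27 in duodenum, a difference of 0.64 ± 0.18 log2 units, adjusted p = 0.0151. The genes not called were Fgf21 and Fst, which were each highest in Veh 2 among the liver libraries.

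**Figure D3:**
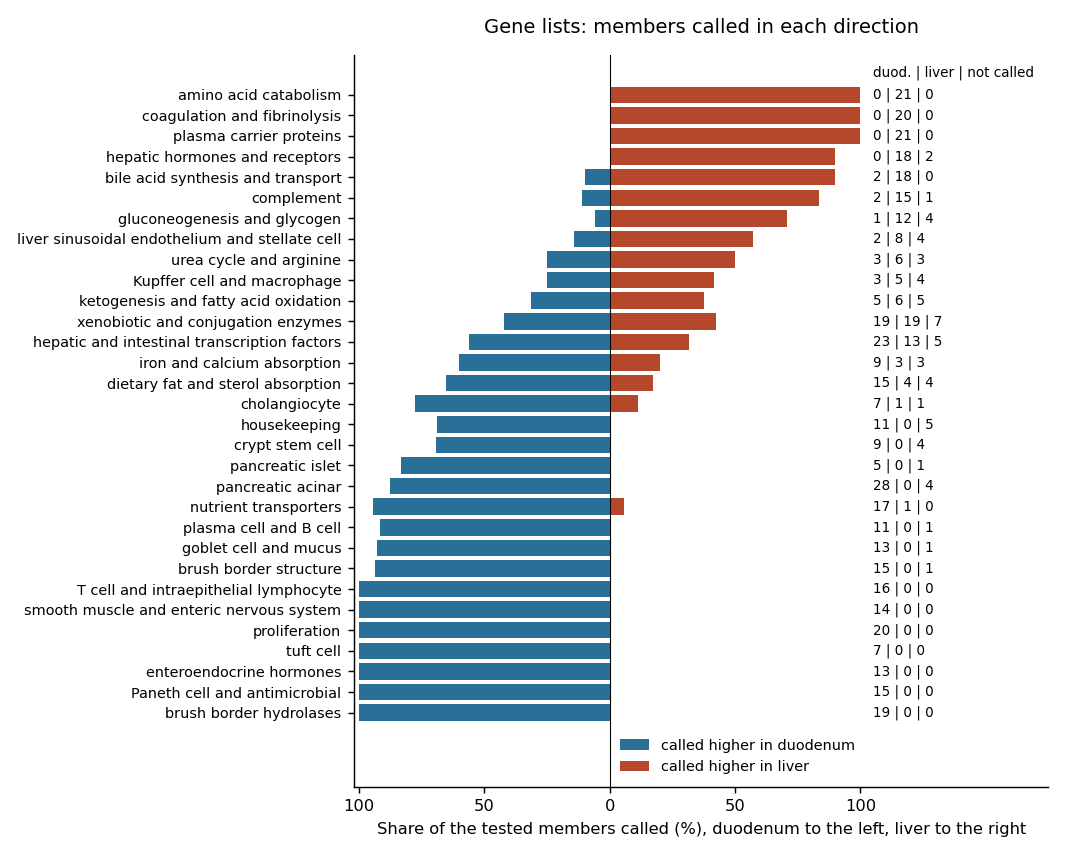
For each of 31 gene lists, the share of its tested members (%) called higher in vehicle duodenum (to the left) and higher in vehicle liver (to the right), with the counts beside the bars (duodenum, liver, not called); members under 1 TPM in 1 tissue are included. Plasma proteins and amino acid breakdown sit at 1 end, brush border, Paneth and proliferation genes at the other, and xenobiotic enzymes and fatty acid oxidation in between.

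Brush border hydrolases were called higher in duodenum for 19 of 19, with a median of -6.43 beside -0.72 for all genes and 53% of all genes called in that direction. Sis measured 0.01, 0 and 0 TPM in the liver libraries and 817, 684 and 694 in the duodenal libraries (sucrase-isomaltase), a difference of -9.51 ± 0.12 log2 units, adjusted p = 1.59e-08. Ggt1 measured 0.23, 0.33 and 0 TPM in the liver libraries and 1130, 1016 and 1048 in the duodenal libraries (gamma-glutamyltransferase), a difference of -9.82 ± 0.14 log2 units, adjusted p = 1.93e-08. Alpi was listed at 0 in the 3 liver libraries and measured 1560, 2704 and 2888 TPM in the duodenal libraries (intestinal alkaline phosphatase). Each duodenal library exceeded each liver library by far for these 3 genes. Some of the hydrolases varied widely among the duodenal libraries. Anpep measured 67.4, 74.0 and 57.1 TPM in the liver libraries and 5238, 2025 and 1914 in the duodenal libraries (aminopeptidase N), a difference of -5.35 ± 0.38 log2 units, adjusted p = 1.85e-05. Akp3, another alkaline phosphatase, was 499, 5068 and 6247 TPM in duodenum, and Enpp7 (alkaline sphingomyelinase) was 112, 12.1 and 11.6 and Lct (lactase) 544, 203 and 261. Veh 1 was thus the lowest for Akp3 and the highest for Anpep, Enpp7 and Lct. Structural genes of the brush border and its keratins were called higher in duodenum for 15 of 16, with a median of -7.59 (-7.82 over the 15 above 0 in both). Vil1 measured 0.02, 0.17 and 0.10 TPM in the liver libraries and 1436, 959 and 1066 in the duodenal libraries (villin), a difference of -10.02 ± 0.17 log2 units, adjusted p = 2.85e-08. Krt20 measured 0.03, 0.09 and 0.12 TPM in the liver libraries and 1474, 1108 and 1235 in the duodenal libraries (a keratin of villus cells), a difference of -10.19 ± 0.14 log2 units, adjusted p = 1.87e-08. The exception was Krt18, a keratin of both epithelia, at 140.1, 179 and 119.6 TPM in liver and 142, 256 and 141 in duodenum.

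Nutrient transporters were called higher in duodenum for 17 of 18 tested of 19 listed, with a median of -5.07 (-4.15 over the 16 above 0 in both). Slc5a1 measured 0.18, 0.62 and 0.73 TPM in the liver libraries and 1292, 1016 and 1167 in the duodenal libraries (the sodium-glucose cotransporter SGLT1), a difference of -9.60 ± 0.18 log2 units, adjusted p = 3.66e-08. Slc15a1 measured 0.03, 0.03 and 0 TPM in the liver libraries and 191, 106 and 112 in the duodenal libraries (the peptide transporter PEPT1), a difference of -7.02 ± 0.23 log2 units, adjusted p = 4.35e-07. Slc6a19 measured 0, 0 and 0.02 TPM in the liver libraries and 339, 209 and 266 in the duodenal libraries (a neutral amino acid transporter), a difference of -8.05 ± 0.19 log2 units, adjusted p = 8.42e-08. Slc46a1 measured 24.9, 24.8 and 26.7 TPM in the liver libraries and 369, 379 and 473 in the duodenal libraries (the proton-coupled folate transporter), a difference of -3.94 ± 0.13 log2 units, adjusted p = 4.40e-07, so this carrier was well above 0 in liver too. The vitamin C transporter Slc23a1 was the one gene called higher in liver, at 15.9, 11.7 and 16.6 TPM in liver and 11.7, 0.64 and 1.18 in duodenum. Duodenum Veh 1 was close to the liver values for Slc23a1, and the call (2.13 ± 0.72 log2 units, adjusted p = 0.0312) was lost when any library except duodenum Veh 1 was left out.

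Dietary fat and sterol genes were called higher in duodenum for 15 of 23, higher in liver for 4 and not called for 4, with a median of -1.57 (-1.33 over the 21 above 0 in both). Of all tested genes 53% were called higher in duodenum and 14.4% higher in liver. After median-ratio scaling 12 were called higher in duodenum and 8 higher in liver. Apoa4 measured 76.2, 172 and 117 TPM in the liver libraries and 12570, 8298 and 7906 in the duodenal libraries (the apolipoprotein of chylomicrons), a difference of -6.33 ± 0.32 log2 units, adjusted p = 3.24e-06. Mttp measured 70.4, 62.8 and 71.9 TPM in the liver libraries and 1201, 893 and 979.9 in the duodenal libraries (which loads lipid onto apolipoprotein B), a difference of -3.88 ± 0.14 log2 units, adjusted p = 6.56e-07. Mogat2 measured 0.27, 0.06 and 0.49 TPM in the liver libraries and 471, 339 and 361 in the duodenal libraries (the monoacylglycerol acyltransferase of enterocytes), a difference of -8.26 ± 0.19 log2 units, adjusted p = 7.56e-08. Npc1l1 was listed at 0 in the 3 liver libraries and measured 239, 134 and 134 TPM in the duodenal libraries (the sterol transporter blocked by ezetimibe). Other apolipoproteins of lipoprotein particles were divided. Apob measured 708, 807 and 639.6 TPM in the liver libraries and 379, 221 and 216 in the duodenal libraries, a difference of 1.44 ± 0.23 log2 units, adjusted p = 0.00114. Apoc3 measured 4066, 5268 and 4991 TPM in the liver libraries and 2254, 1372 and 1169 in the duodenal libraries, a difference of 1.63 ± 0.25 log2 units, adjusted p = 8.50e-04, whereas Apoa1 was 10611, 17425 and 13347 TPM in liver and 12149, 8573 and 8173 in duodenum and was not called (0.51 ± 0.22 log2 units, adjusted p = 0.0723). After median-ratio scaling Apoa1 was called higher in liver, by 1.33 (adjusted p = 4.41e-04). Apoc2, the activator of lipoprotein lipase, was higher in duodenum by -3.08 (adjusted p = 6.01e-05), so the C apolipoproteins did not share a direction.

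Iron, zinc and calcium genes were called higher in duodenum for 9 of 15 tested of 16 listed, higher in liver for 3 and not called for 3, near the shares of all tested genes (53% and 14.4%). S100g measured 0.55, 0 and 0.17 TPM in the liver libraries and 75.8, 3723 and 2428 in the duodenal libraries (calbindin-D9k, which ferries calcium through enterocytes), a difference of -9.50 ± 1.37 log2 units, adjusted p = 6.44e-04. Vdr measured 0.01, 0 and 0 TPM in the liver libraries and 155, 163 and 216 in the duodenal libraries (the vitamin D receptor), a difference of -7.46 ± 0.15 log2 units, adjusted p = 5.15e-08. Slc11a2 measured 7.68, 9.45 and 5.84 TPM in the liver libraries and 62.0, 108 and 79.0 in the duodenal libraries (the iron importer DMT1), a difference of -3.26 ± 0.24 log2 units, adjusted p = 2.40e-05. Slc40a1 measured 19.7, 33.8 and 28.5 TPM in the liver libraries and 11.8, 263 and 302 in the duodenal libraries (ferroportin, the iron exporter) and was not called, since duodenum Veh 1 lay below the liver libraries and the other duodenal libraries far above them. Veh 1 was also the lowest duodenal library for S100g and Cybrd1 (the duodenal ferric reductase, 0.64, 13.6 and 8.53 TPM). The ferritin chains split. Fth1 measured 2255, 2893 and 2490 TPM in the liver libraries and 8393, 12752 and 15655 in the duodenal libraries (heavy chain), a difference of -2.23 ± 0.23 log2 units, adjusted p = 1.25e-04. Ftl1 measured 3926, 5721 and 4157 TPM in the liver libraries and 2074, 2399 and 2090 in the duodenal libraries (light chain), a difference of 1.06 ± 0.16 log2 units, adjusted p = 8.40e-04.

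Goblet cell genes were called higher in duodenum for 13 of 14 tested, with a median of -6.76 (-7.89 over the 13 above 0 in both). Of the 17 listed, 16 were found among the measured genes. Zg16 measured 0.30, 0.36 and 0.54 TPM in the liver libraries and 5831, 4313 and 6261 in the duodenal libraries (a lectin of the mucus layer), a difference of -11.92 ± 0.17 log2 units, adjusted p = 1.87e-08. Muc2 measured 0.08, 0.06 and 0.11 TPM in the liver libraries and 50.9, 44.2 and 49.7 in the duodenal libraries (the gel-forming mucin), a difference of -5.51 ± 0.12 log2 units, adjusted p = 6.34e-08. Tff3 measured 25.9, 346 and 57.5 TPM in the liver libraries and 4255, 3852 and 3967 in the duodenal libraries (trefoil factor 3), a difference of -5.62 ± 0.84 log2 units, adjusted p = 7.80e-04, with liver Veh 2 several times above the other liver libraries. Tff2, a trefoil peptide known from stomach and Brunner's glands, was 0.76, 144 and 145 TPM in duodenum, near 0 in Veh 1 and high in Veh 2 and Veh 3. Tff1 and Muc5b, which mark stomach and airway mucus, were at 0 or close to it.

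Paneth cell and antimicrobial genes were called higher in duodenum for 15 of 15, with a median of -8.49 (-7.16 over the 7 above 0 in both). Defa24 was listed at 0 in the 3 liver libraries and measured 4698, 11831 and 9161 TPM in the duodenal libraries (an alpha-defensin). Lyz1 measured 0.09, 0.14 and 0.08 TPM in the liver libraries and 843, 2010 and 2199 in the duodenal libraries (the Paneth cell lysozyme), a difference of -10.46 ± 0.35 log2 units, adjusted p = 4.67e-07. Veh 1 was the lowest duodenal library for both. The Reg3 lectins ran the other way, with Reg3b at 5779, 100.03 and 2405 TPM and Reg3g at 2522, 84.8 and 1452 in duodenum, Veh 2 being the lowest. Ang4, an antimicrobial ribonuclease, was 70.6, 2297 and 309 TPM with Veh 2 the highest, and Sprr2a2, a small proline-rich protein of the epithelium, was 4221, 11467 and 4836 TPM in duodenum and 0.92, 1.07 and 1.16 in liver (-11.56 ± 0.36 log2 units, adjusted p = 3.26e-07). Lyz2, the lysozyme of macrophages, was closer between the organs, at 32.7, 73.8 and 43.8 TPM in liver and 72.6, 87.8 and 116 in duodenum, with a difference of -0.92 ± 0.31 log2 units, adjusted p = 0.0312 that was not called after median-ratio scaling (-0.11).

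Of 17 enteroendocrine genes in the tables, 13 reached a mean of 1 TPM in duodenum and none in liver, where 10 of these 13 were listed at 0 in all libraries. Each of the 13 passed the filter through duodenum alone, so their calls are not read as a result. Gip was listed at 0 in the 3 liver libraries and measured 267, 209.7 and 191 TPM in the duodenal libraries (the incretin GIP). Cck was listed at 0 in the 3 liver libraries and measured 123, 151 and 138 TPM in the duodenal libraries (cholecystokinin). Sct was listed at 0 in the 3 liver libraries and measured 76.6, 112 and 109 TPM in the duodenal libraries (secretin, a hormone of duodenal S cells). The hormones of the proximal gut stood near or above 100 TPM. Those known from the distal gut were lower, with Gcg (the proglucagon gene) at 19.9, 14.5 and 9.79 TPM, Pyy at 0.53, 15.3 and 9.75 and Nts at 2.85, 1.21 and 0.75. Tuft cell genes were called higher in duodenum for 7 of 7 tested of 10 listed, beside 53% of all tested genes. Of the 7, 2 were at 1 TPM or more in both tissues. The others passed the filter through duodenum alone, so their calls are not read as a result. Trpm5, the cation channel of tuft cells, was 6.46, 16.9 and 4.26 TPM in duodenum, Sh2d6 7.47, 48.0 and 6.38, Avil 7.87, 22.5 and 5.04 and Pou2f3, their lineage factor, 1.12, 5.02 and 1.05. Veh 2 was the highest duodenal library for each of the 7 tuft genes.

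Cell cycle genes followed the duodenum, while crypt stem cell genes were called about as often as all tested genes. Proliferation genes were called higher in duodenum for 20 of 20, with a median of -3.48. Mki67 measured 0.11, 0.12 and 0.08 TPM in the liver libraries and 13.6, 9.82 and 10.6 in the duodenal libraries (the Ki-67 antigen), a difference of -3.47 ± 0.16 log2 units, adjusted p = 1.98e-06. Top2a measured 0.21, 0.31 and 0.17 TPM in the liver libraries and 46.5, 34.6 and 35.4 in the duodenal libraries (topoisomerase II), a difference of -5.01 ± 0.15 log2 units, adjusted p = 3.12e-07. Pcna measured 17.9, 21.7 and 20.2 TPM in the liver libraries and 76.4, 67.7 and 62.6 in the duodenal libraries (the sliding clamp of replication), a difference of -1.74 ± 0.13 log2 units, adjusted p = 2.58e-05. The licensing and replication genes Pcna, Tyms and Mcm7 were several TPM or more in liver, while the mitotic genes were mostly below 1 TPM there. Of 13 crypt stem cell genes 9 (69.2%) were called higher in duodenum and 4 were not called, with a median of -1.67. Of all tested genes 67.4% were called, 53% higher in duodenum. Of the 8 crypt genes at 1 TPM or more in both tissues 4 were called higher in duodenum, beside 4804 of all 9905 such genes. Olfm4 was listed at 0 in the 3 liver libraries and measured 212, 151 and 201 TPM in the duodenal libraries (a marker of crypt base cells). Lgr5 measured 1.90, 1.22 and 1.11 TPM in the liver libraries and 1.54, 1.83 and 2.28 in the duodenal libraries (the R-spondin receptor that marks intestinal stem cells) and was not called (-0.27 ± 0.19 log2 units, adjusted p = 0.235). Znrf3 and Tnfrsf19 were also close between the organs, at 1.56, 1.77 and 1.75 and 1.41, 2.62 and 2.04 TPM in liver. After median-ratio scaling 2 of the crypt genes were called higher in liver and 7 higher in duodenum.

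The duodenal wall added muscle, nerve and immune genes. Smooth muscle and enteric nerve genes were called higher in duodenum for 14 of 14 tested of 20 listed, with a median of -3.56. Actg2 measured 0, 0.69 and 0.11 TPM in the liver libraries and 132, 303 and 113 in the duodenal libraries (enteric smooth muscle actin), a difference of -7.07 ± 0.39 log2 units, adjusted p = 5.46e-06. Vip measured 0, 0.07 and 0 TPM in the liver libraries and 10.1, 8.87 and 9.10 in the duodenal libraries (a peptide of enteric neurons), a difference of -3.34 ± 0.13 log2 units, adjusted p = 1.02e-06. Plasma and B cell genes were called higher in duodenum for 11 of 12 tested of 14 listed, and for 9 after median-ratio scaling. Igha measured 4.35, 9.10 and 1.49 TPM in the liver libraries and 7143, 8683 and 8467 in the duodenal libraries (the constant chain of immunoglobulin A), a difference of -10.62 ± 0.46 log2 units, adjusted p = 1.61e-06. Jchain measured 0.59, 1.91 and 1.23 TPM in the liver libraries and 785, 965 and 883 in the duodenal libraries (which joins immunoglobulin A units), a difference of -8.65 ± 0.23 log2 units, adjusted p = 1.46e-07. Pigr measured 395, 492 and 374 TPM in the liver libraries and 2171, 1301 and 1903 in the duodenal libraries (the epithelial receptor that exports immunoglobulin A), a difference of -2.07 ± 0.21 log2 units, adjusted p = 1.16e-04, and each liver library was at 374 TPM or more. T cell genes were called higher in duodenum for 16 of 16, with a median of -3.66. Gzma measured 0.21, 0.82 and 0.19 TPM in the liver libraries and 225, 331 and 343 in the duodenal libraries (granzyme A), a difference of -7.74 ± 0.24 log2 units, adjusted p = 3.06e-07. Ccl25 measured 2.89, 5.62 and 2.66 TPM in the liver libraries and 737, 544 and 564 in the duodenal libraries (the chemokine that draws lymphocytes to the small intestine), a difference of -7.07 ± 0.25 log2 units, adjusted p = 6.45e-07. Ms4a1, which marks B cells before the plasma cell stage, was below 1 TPM in each library.

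Resident cells of the liver were visible at lower levels. Of 12 genes of Kupffer cells and macrophages 5 were called higher in liver, 3 higher in duodenum and 4 were not called, with a median of -0.08. The share called in either direction, 66.7%, was near the 67.4% of all tested genes (14.4% higher in liver, 53% higher in duodenum). Clec4f measured 41.8, 39.9 and 56.2 TPM in the liver libraries and 0.05, 0.15 and 0 in the duodenal libraries (the Kupffer cell lectin), a difference of 5.45 ± 0.17 log2 units, adjusted p = 2.95e-07. Cd5l measured 24.8, 28.4 and 26.2 TPM in the liver libraries and 0, 0.03 and 0.05 in the duodenal libraries (a secreted macrophage protein), a difference of 4.74 ± 0.12 log2 units, adjusted p = 1.32e-07. Vsig4, a complement receptor of resident macrophages, was 10.4, 11.6 and 15.6 TPM in liver and listed at 0 in duodenum. The genes called higher in duodenum were C1qa, C1qb and Csf1r. Csf1r, the receptor for the growth factor of macrophages, was 5.43, 7.94 and 7.44 TPM in liver and 14.7, 28.2 and 27.2 in duodenum (-1.58 ± 0.27 log2 units, adjusted p = 0.00154). After median-ratio scaling 5 genes of the list were called higher in liver and 1, Csf1r, higher in duodenum. Of 14 tested genes of sinusoidal endothelium and stellate cells 8 were called higher in liver, 2 higher in duodenum and 4 were not called. The share called in either direction, 71.4%, was also near that of all tested genes. Clec4g measured 13.6, 24.0 and 16.5 TPM in the liver libraries and 0, 0.11 and 0 in the duodenal libraries (a lectin of sinusoidal endothelium), a difference of 4.16 ± 0.21 log2 units, adjusted p = 3.73e-06. Liver Veh 2 was the highest of the liver libraries for 13 of these 14 genes, the exception being Dnase1l3. Bile duct markers were mostly duodenal in these data. Krt19 was 0.80, 1.47 and 1.89 TPM in liver and 1171, 1121 and 1275 in duodenum, and of 9 tested cholangiocyte genes 7 were called higher in duodenum, with Spp1 (osteopontin) the one called higher in liver.

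Transcription factors were divided between the organs. Of 41 tested of 43 listed, 13 were called higher in liver, 23 higher in duodenum and 5 were not called, with a median of -1.12. Of all tested genes 14.4% were called higher in liver and 53% higher in duodenum, so the duodenal count was near the share of all genes. After median-ratio scaling these counts were 15 and 18. Cebpa measured 158, 173 and 139 TPM in the liver libraries and 21.2, 14.5 and 15.6 in the duodenal libraries (C/EBP alpha, a factor of hepatocytes and fat cells), a difference of 3.14 ± 0.17 log2 units, adjusted p = 4.87e-06. Prox1 measured 17.8, 15.8 and 14.2 TPM in the liver libraries and 0.19, 0.38 and 0.19 in the duodenal libraries (a homeobox factor of hepatocytes and lymphatic vessels), a difference of 3.75 ± 0.14 log2 units, adjusted p = 8.78e-07. Foxa3 measured 33.4, 62.1 and 46.8 TPM in the liver libraries and 6.10, 6.07 and 6.95 in the duodenal libraries (a forkhead factor of endoderm), a difference of 2.67 ± 0.22 log2 units, adjusted p = 4.26e-05. The nuclear receptors Nr1h4 (the bile acid receptor FXR), Ppara and Rxra were also called higher in liver, by 2.18, 1.86 and 0.83. On the duodenal side stood the caudal and GATA factors. Cdx2 measured 0, 0 and 0.02 TPM in the liver libraries and 91.6, 59.7 and 62.9 in the duodenal libraries (the caudal factor that sets intestinal identity), a difference of -6.14 ± 0.18 log2 units, adjusted p = 2.60e-07. Gata4 measured 3.95, 5.91 and 4.24 TPM in the liver libraries and 113, 101 and 108 in the duodenal libraries (a factor of the proximal intestine), a difference of -4.27 ± 0.16 log2 units, adjusted p = 7.12e-07. Isx was listed at 0 in the 3 liver libraries and measured 79.4, 48.0 and 66.1 TPM in the duodenal libraries (the intestine-specific homeobox). Hnf4g measured 0.04, 0.12 and 0.04 TPM in the liver libraries and 118, 76.8 and 121 in the duodenal libraries, a difference of -6.61 ± 0.19 log2 units, adjusted p = 2.51e-07. Pdx1, a factor of duodenum and pancreas, was 13.4, 41.9 and 40.6 TPM in duodenum, with Veh 1 the lowest.

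Some factors known from both organs were close. Hnf4a measured 145, 161 and 144 TPM in the liver libraries and 220.3, 202 and 190.2 in the duodenal libraries and had a difference of -0.44 ± 0.11 log2 units, adjusted p = 0.00903 with no call, which became 0.38 after median-ratio scaling. Nr1i3 (the constitutive androstane receptor CAR) was 66.8, 33.5 and 71.8 TPM in liver and 43.9, 41.4 and 46.5 in duodenum and overlapped. Nr1i2 (the pregnane receptor PXR) was 19.7, 25.3 and 27.2 and 58.9, 42.7 and 64.3, called higher in duodenum (-1.16 ± 0.20 log2 units, adjusted p = 0.00143) but not after median-ratio scaling (-0.36).

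Enzymes of drug and toxin metabolism were called equally often in both directions, unlike all tested genes (14.4% higher in liver, 53% higher in duodenum). Of 45 genes 19 were called higher in liver, 19 higher in duodenum and 7 were not called, with a median of 0.01. After median-ratio scaling 23 were called higher in liver and 16 higher in duodenum. Cyp2e1 measured 3499, 2363 and 3662 TPM in the liver libraries and 2.50, 1.75 and 1.20 in the duodenal libraries (the cytochrome that oxidises ethanol), a difference of 10.14 ± 0.23 log2 units, adjusted p = 8.41e-08. Cyp1a2 measured 545, 266 and 487 TPM in the liver libraries and 1.57, 1.02 and 1.20 in the duodenal libraries (an oxidase of caffeine), a difference of 7.52 ± 0.28 log2 units, adjusted p = 7.20e-07. Cyp2f2 measured 876, 864 and 947 TPM in the liver libraries and 0.28, 0.29 and 0.11 in the duodenal libraries, a difference of 9.52 ± 0.12 log2 units, adjusted p = 1.59e-08. On the other side, Cyp2b10 measured 1.56, 0.60 and 6.51 TPM in the liver libraries and 575, 424 and 501 in the duodenal libraries (a target of CAR), a difference of -7.31 ± 0.52 log2 units, adjusted p = 1.94e-05. Cyp2c65 measured 0, 0.03 and 0.02 TPM in the liver libraries and 214, 279 and 251 in the duodenal libraries, a difference of -7.93 ± 0.13 log2 units, adjusted p = 2.80e-08. Adh6a measured 0.04, 0 and 0 TPM in the liver libraries and 1206, 903 and 1126 in the duodenal libraries (an alcohol dehydrogenase), a difference of -10.05 ± 0.14 log2 units, adjusted p = 1.87e-08. The drug efflux pump Abcb1a was 0.56, 1.83 and 0.70 TPM in liver and 69.0, 58.7 and 58.3 in duodenum (-5.0 ± 0.24 log2 units, adjusted p = 2.60e-06). As families, Cyp2 enzymes took 1.09% ± 0.19 of liver TPM and 0.176% ± 0.01 of duodenal TPM, whereas Cyp3a enzymes took 0.104% ± 0.01 and 0.123% ± 0.01 (exact permutation test, two-sided, p = 0.2). Members of the Cyp2c, Cyp2d and Ugt1a families share much sequence, so their reads can be split between copies.

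Related genes were compared in 16 pairs, which were chosen with earlier results of these data known, so their counts are a description. In 8 pairs the partners were called in opposite directions. These were Arg1 and Arg2, Acsl1 and Acsl5, Adh1 and Adh6a, Cyp3a11 and Cyp3a13, Gsta3 and Gsta1, Ces1d and Ces2c, Slc16a7 and Slc16a1, and Sult1a1 and Sult1b1, with the liver partner first. Acsl1 measured 119, 164 and 146 TPM in the liver libraries and 22.4, 22.4 and 20.1 in the duodenal libraries, a difference of 2.66 ± 0.15 log2 units, adjusted p = 5.27e-06, and Acsl5, which also activates fatty acids, was 75.3, 103 and 107 and 1426, 1083 and 953 (-3.58 ± 0.20 log2 units, adjusted p = 5.49e-06). Sult1a1 measured 203, 372 and 276 TPM in the liver libraries and 2.84, 3.05 and 6.32 in the duodenal libraries (a phenol sulfotransferase), a difference of 5.83 ± 0.31 log2 units, adjusted p = 4.65e-06, while Sult1b1 was 10.8, 7.74 and 15.8 and 384, 314 and 369.7. In another 4 pairs 1 partner was not called and the other was higher in duodenum, in 3 pairs both were called in the same direction, and in 1 pair neither was called.

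**Figure D4:**
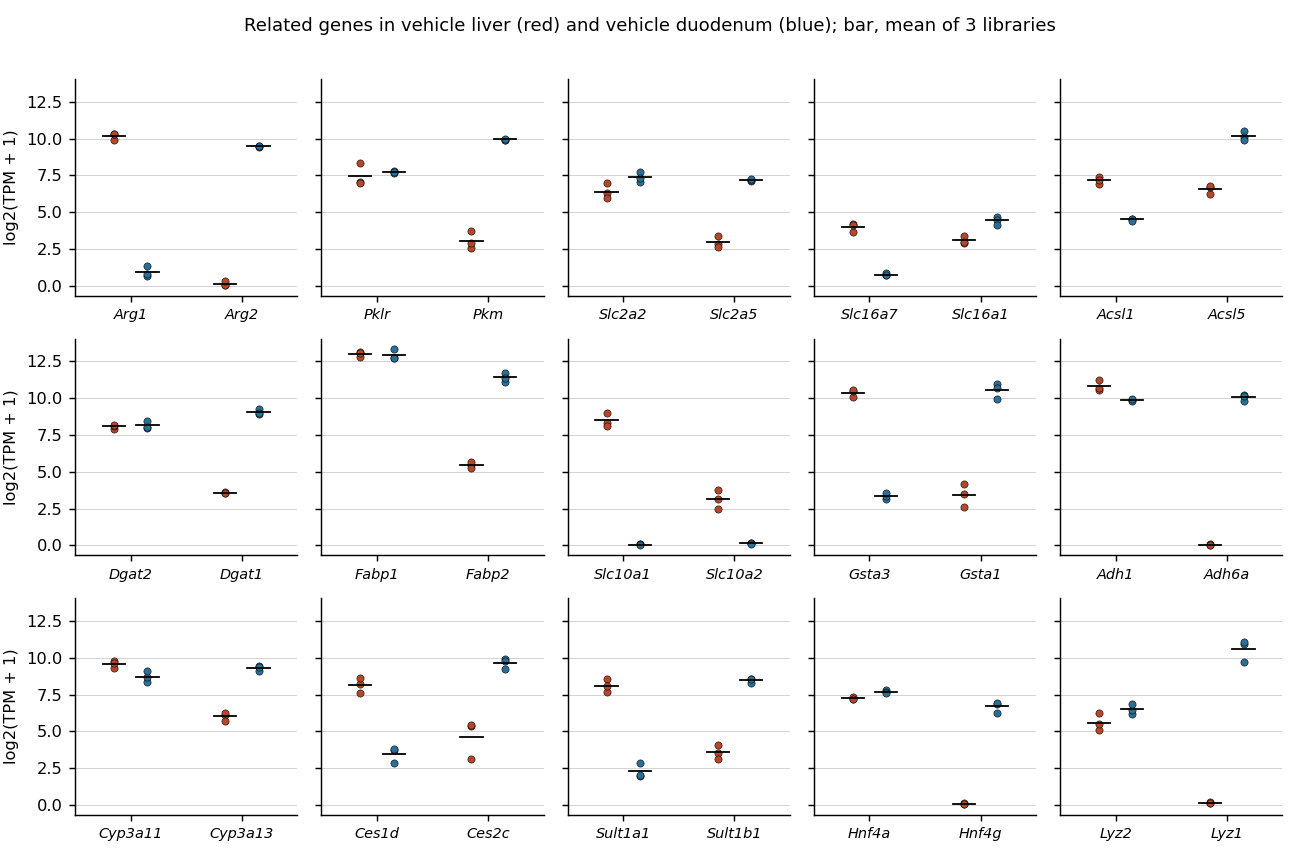
Levels as log2(TPM + 1) of paired related genes in each vehicle library, liver and duodenum side by side, with 1 point per library. Arg1 and Arg2 or Slc16a7 and Slc16a1 cross between the tissues, while Fabp1, Dgat2 and Pklr sit at like levels beside a partner that is high in duodenum.

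Fabp1 measured 6958, 8922 and 8526 TPM in the liver libraries and 10617, 6820 and 6814 in the duodenal libraries (the liver fatty acid binding protein, which enterocytes also make), and the ranges overlapped (0.03 ± 0.20 log2 units, adjusted p = 0.883). Its intestinal partner Fabp2 was 5.95 log2 units higher in duodenum. Dgat2 measured 243, 273 and 295 TPM in the liver libraries and 354, 248 and 268 in the duodenal libraries and was not called, whereas Dgat1, which completes triglyceride synthesis in enterocytes, was 10.6, 11.5 and 10.6 and 616, 483 and 499 (-5.48 ± 0.13 log2 units, adjusted p = 9.38e-08). Pklr measured 128, 125 and 329 TPM in the liver libraries and 199, 217 and 209.7 in the duodenal libraries (pyruvate kinase of liver and red cells), and Pkm (the other pyruvate kinase gene) was 4.87, 12.2 and 6.47 and 962, 961 and 1022 (-6.88 ± 0.28 log2 units, adjusted p = 1.25e-06). After median-ratio scaling Fabp1 was called higher in liver, by 0.86 (adjusted p = 0.00521), as was Dgat2, by 0.73 (adjusted p = 0.00707). Pklr moved to 0.56, on the liver side, with no call.

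Few genes stood at the same level. The difference was within 0.1 log2 units for 623 of the 14134 genes. The highest of them, beside Fabp1, were Rn18s, Tle5, Rpl36al and Rps27l. Tle5 measured 461, 533 and 433 TPM in the liver libraries and 468, 454 and 421 in the duodenal libraries (a corepressor), and Rps27l measured 335, 368 and 321 TPM in the liver libraries and 403, 348 and 341 in the duodenal libraries (a ribosomal protein relative), with overlap between the tissues for both. The equal level holds on the TPM scale only. After median-ratio scaling limma called Tle5 higher in liver, by 0.90 log2 units (adjusted p = 1.38e-04), and Rps27l by 0.73 (adjusted p = 7.67e-04). Rn18s and Rpl36al were called higher in liver too, by 0.77 and 0.73. Common reference genes were called about as often as all tested genes (67.4%): 11 of 16 were called higher in duodenum and 5 were not called, with a median of -0.99, and after median-ratio scaling 4 were called higher in duodenum and 3 higher in liver. Actb measured 250.4, 325 and 186 TPM in the liver libraries and 3243, 2457 and 2715 in the duodenal libraries (beta-actin), a difference of -3.49 ± 0.22 log2 units, adjusted p = 9.38e-06. Gapdh measured 1788, 1865 and 2181 TPM in the liver libraries and 3307, 4426 and 3762 in the duodenal libraries, a difference of -0.97 ± 0.14 log2 units, adjusted p = 6.32e-04 that was not called after scaling (-0.15). Hprt measured 34.7, 38.4 and 40.0 TPM in the liver libraries and 57.7, 55.3 and 49.6 in the duodenal libraries, and Eef1a1 measured 3244, 4741 and 3652 TPM in the liver libraries and 3241, 2830 and 3513 in the duodenal libraries, with no call for either.

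Pancreatic transcripts set the duodenal libraries apart from each other. The 34 acinar genes summed to 0.259%, 4.57% and 3.83% of duodenal TPM and to 0.004% in liver. Without Reg1, Spink1 and Clps, 3 genes that the epithelium of the gut may also hold, the sums were 0.0211%, 3.93% and 3.11%. Prss2 was listed at 0 in the 3 liver libraries and measured 2.29, 3289 and 2724 TPM in the duodenal libraries (a trypsinogen). Ctrb1 was listed at 0 in the 3 liver libraries and measured 14.5, 7733 and 6026 TPM in the duodenal libraries (chymotrypsinogen). Cela2a measured 1.17, 1.5 and 0.81 TPM in the liver libraries and 28.8, 4137 and 4168 in the duodenal libraries (an elastase), a difference of -8.55 ± 1.82 log2 units, adjusted p = 0.00433. Amy2a5 (pancreatic amylase) was 0, 1990 and 1277 TPM in duodenum. Veh 2 and Veh 3 were thus far above Veh 1 for most of these genes, while Reg1 (1885, 3393 and 4722 TPM) was high in all. By limma 28 of 32 tested acinar genes were called higher in duodenum, beside 53% of all tested genes, and 12 to 15 were called when any single library other than duodenum Veh 1 was left out. Only 2 of the 32 were at 1 TPM or more in both tissues, and 1 of these was called. The others passed the filter through duodenum alone, so their calls are not read as a result. Among islet genes, Ins2 (insulin) was 0, 4.97 and 25.4 TPM in duodenum. Try4, Try5, Prss2 and the other trypsinogens are near-identical copies whose reads can be split.

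**Figure D5:**
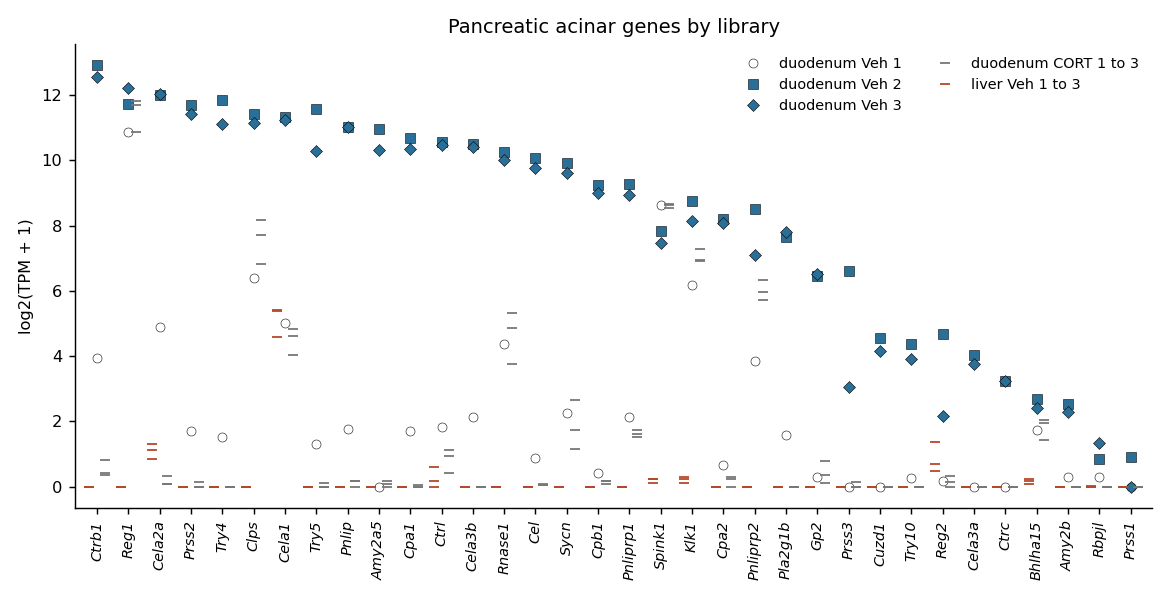
Levels as log2(TPM + 1) of pancreatic acinar genes in the single vehicle libraries of both tissues, with the CORT duodenum libraries as grey dashes. Duodenum Veh 2 and Veh 3 lie far above duodenum Veh 1 for the trypsinogens, chymotrypsinogens, lipases and amylase, and the liver libraries lie at or near 0.

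The same 2 duodenal libraries differed from Veh 1 in other genes named above: they were higher for Akp3, S100g, Slc40a1, Tff2 and Pdx1, and lower for Anpep, Enpp7 and Lct. The part of the acinar transcripts in these results was not tested. With the acinar genes removed and TPM rescaled 9652 genes were called. With duodenum Veh 1 as the lone duodenal library, assumed to vary like the liver libraries, 7717 genes were called, 1463 higher in liver and 6254 higher in duodenum. In that fit the counts of hydrolases, transporters, goblet, Paneth and proliferation genes called higher in duodenum, and of plasma protein, coagulation and amino acid breakdown genes called higher in liver, stayed within 1.5 times of those with all libraries. Other counts fell: complement genes called higher in duodenum went from 2 to 0, oxidation genes from 5 to 2 and macrophage genes from 3 to 0, and sinusoidal and stellate genes called higher in liver went from 8 to 4. Of the named genes, Tff3, Nr0b2, Foxa1, Onecut1, Plin2, Adh1 and Ftl1 were among those that lost their call there.

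The CORT libraries gave a second, separate measurement of the contrast between the organs, with no library shared. There 9187 of 14166 genes (64.9%) were called, 2154 higher in liver and 7033 higher in duodenum. Of the 9196 Veh calls that were tested in CORT, 7835 (85.2%) were called in the same direction and 20 in the other direction. The 7835 are 88.4% of the CORT calls tested in Veh. All Veh calls together include 801 liver-only and 2691 duodenum-only genes, which had to differ in Veh. The overlap of calls is thus a description and no independent support for the differences. The acinar share in the CORT duodenum was 0.434%, 0.421% and 0.287%. Of the 34 acinar genes 10 passed the filter in the CORT libraries, and 9 of these were called higher in duodenum. A tissue by treatment term over all 12 libraries passed an adjusted p of 0.05 for 534 of 14806 genes (3.61%).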

How the data were processed

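RNA-seq of liver and duodenum from Veh and CORT mice was analysed, with 3 libraries per group and 12 in all. The authors deposited 1 table per tissue, whose values are TPM of each gene in each single library, and the submitters' processing notes name HISAT2, StringTie, RSEM and build GRCm39, with no versions. Depth per library is not given in the sources used here, so no counting error or detection limit is given, and precision comes from the spread between 3 libraries.

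The tables were joined on gene identifier, genes with a mean of 1 TPM or more in either Veh tissue were kept, and log2(TPM + 1) was fitted with limma 3.58.1 (R 4.3.3; trended empirical Bayes) without a replicate block. Calls needed a Benjamini-Hochberg adjusted p of 0.05 or less over all genes tested and a fold change above 1.5. Differences are on the log2(value + 1) scale, which understates low genes. The fit was checked on simulated data. Shares were compared by exact permutation (scipy 1.17.1).

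Genes named were Alb and Fabp2, the 10 highest per tissue, the 10 largest differences per direction, up to 3 per direction in each of 31 lists with members called against their list, 16 paralogue pairs, 5 acinar genes, the transcription factors, and 5 high genes within 0.1 log2 units. Some genes and pairs that this rule names are not reported here. Other genes were chosen after their values were seen, as were the families. Members and lists were chosen with earlier results of these data known. The fit without duodenum Veh 2 and Veh 3 was also added after seeing the data. Other alternatives were pseudocount, filter, median-ratio scaling, removal of acinar or top genes, fold limit, replicate block and leaving out each library. Same-numbered libraries of the 2 tissues were not treated as pairs. The labels and the methods of the study do not say whether they share a mouse. The correlations of their deviations (0.109, 0.035 and -0.022 over 9905 genes) come from 3 libraries per tissue and cannot decide it. Promoter windows are RefSeq's on GRCm38.p6, and no coordinates were mixed with the expression tables.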

Additional observations from a re-analysis of the deposited data

Results flagged for a closer look

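For 14 of the named genes the liver minus duodenum difference itself differed between CORT and Veh, by the tissue by treatment term of limma over all 12 libraries (adjusted p of 0.05 or less over 14806 genes). Values below are CORT minus Veh of that difference, in log2 units, and the term does not say which tissue moved. Dgat2, which completes triglyceride synthesis, was near equal in Veh and had a term of -1.79 (adjusted p = 0.00131), with 308, 279.9 and 311 TPM in CORT liver and 1265, 982 and 1078 in CORT duodenum. The term was -1.78 for Apob, -1.77 for Ces1d, -2.29 for Sult1a1 and -2.85 for Gnmt. The liver excess was smaller in CORT for Ces1d, Sult1a1 and Gnmt. For Apob liver minus duodenum was 1.44 log2 units in Veh and -0.33 in CORT, with no call in CORT. The Kupffer cell gene Clec4f had a term of -3 (adjusted p = 0.00509), with 30.0, 38.5 and 77.5 TPM in CORT liver and 10.3, 5.31 and 7.42 in CORT duodenum, against 0.05, 0.15 and 0 in Veh duodenum.

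The term was positive for the remaining genes. It was 4.1 for Sprr2a2 (adjusted p = 0.00131), which was 631, 369 and 419.6 TPM in CORT duodenum against 4221, 11467 and 4836 in Veh duodenum. It was 4.01 for Fgf21, 2.19 for Maf, 1.47 for Dnase1l3, 1.32 for Mylk, 1.27 for Arg2 and 1.08 for Hnf4a. The acinar gene Cela2a had a term of 8.47 and was 0.26, 0.07 and 0.06 TPM in CORT duodenum, while Veh duodenum ranged from 28.7 to 4168 TPM.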

How the results depend on the processing

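The count of called genes was 9524, and it stayed within 1.5 times of that under each alternative except a fold limit of 4, which gave 3190 (864 higher in liver, 2326 higher in duodenum). Median-ratio scaling gave 3854 higher in liver and 4272 higher in duodenum. The replicate block gave 9656 calls, 2076 higher in liver and 7580 higher in duodenum, and whether same-numbered libraries share a mouse is not known. A pseudocount of 0.1 gave 9914, no filter 9672 and removal of the 10 highest genes of each tissue 9177. Leaving out 1 library gave 9117 to 9720. For the 10 highest liver genes, leaving out 1 library gave shares of 25.4% to 27.3%, and the highest came without liver Veh 2. The share of the 10 highest duodenal genes was 11.7% without mitochondrially encoded genes. Since depth is unknown, low levels cannot be given a counting limit.

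Genes near equal levels changed sign. After median-ratio scaling the difference was 0.38 for Hnf4a, 0.18 for Ehhadh, 0.18 for Acadl, 0.73 for Dgat2, 0.73 for Rps27l, 0.11 for C1qb, 0.56 for Pklr, 0.31 for Onecut2, 0.73 for Rpl36al, 0.14 for Hadhb, 0.14 for B2m, 0.49 for mt-Co1, 0.70 for mt-Atp8, 0.42 for Gm28661 and 0.77 for Rn18s. With the 10 highest genes of each tissue removed it was 0.15 for Dgat2, 0.15 for Rps27l, 0.15 for Rpl36al and 0.19 for Rn18s. Fabp1 stood at -0.0086 with acinar genes removed and at -0.39 without duodenum Veh 2 and Veh 3. Leaving out 1 library gave -0.19 to 0.062 for Dgat2, -0.18 to 0.025 for Rpl36al, -0.073 to 0.25 for Fabp1, -0.00080 to 0.15 for Tle5 and -0.19 to 0.048 for Rn18s.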
